A study of Oryzias latipes with 60 samples.

Results

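The 100 genes described here had higher transcript levels in xmrk transgenic medaka than in wild-type medaka in each of 3 kinds of control fish, which were untreated fish, fish in saline and fish in DMSO. They were chosen by measured values. For every gene with a mean of at least 0.5 CPM (counts scaled to library size), the median log2 CPM of the wild-type fish was subtracted from that of the transgenic fish in each kind of control, the smallest of the 3 differences was taken as the score, and the 100 highest scores were kept. The table held 20459 genes, of which 17881 passed the limit on mean CPM and 2632 had a score above 0. The 30 control fish therefore fixed the direction in the controls, and their values are given as a description only. The 30 drug-treated fish took no part in the score, and all tests were made on them. They did enter the mean CPM limit and the scaling of libraries, which were taken over all 60 libraries. With both taken from the control fish alone, 98 of the 100 genes were chosen again.

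Xmrk is a receptor tyrosine kinase of the EGF receptor family that signals without ligand, known as the oncogene of pigment cell tumours in Xiphophorus hybrids. Receptors of this family signal in part through the RAS, RAF, MEK and ERK kinases, which control transcription of many growth-related genes. Trametinib inhibits the kinase MEK, and cisplatin is a platinum compound that forms adducts and crosslinks in DNA.

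RNA of whole medaka (Oryzias latipes), a small fish used as a vertebrate model, was sequenced in 60 libraries, 35 from xmrk transgenic and 25 from wild-type fish. The fish were 3 to 4 weeks old and about 10 mm long. The groups used were untreated fish, saline fish and DMSO fish, with 5 of each genotype in each, and fish in 70 µM cisplatin or 20 nM trametinib, with 10 transgenic and 5 wild-type fish per drug. Drug and vehicle fish were kept in petri dishes for 5 days, whereas untreated fish stayed in their regular housing. Each library was taken as 1 fish, because each fish number occurs in 1 title. The labels name neither the promoter nor the line of the transgene, so the transgene and its genetic background cannot be told apart. Which fish shared a dish is not given, so a dish and its group cannot be told apart, and the p-values reflect only variation among fish with the same label. In whole fish, fewer cells of a type and less RNA per cell cannot be told apart.

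Total counts per library lay between 34788594 and 67018564. In 6 libraries the TMM factor, which scales a library for its composition, was under 0.8. They came from transgenic saline fish 17, transgenic cisplatin fish 21 and 31, transgenic trametinib fish 63, wild-type cisplatin fish 40 and wild-type DMSO fish 47. Part of the results is given with and without them. The genes carry Ensembl identifiers, and 0 of the 20459 identifiers matched the reference table of gene symbols. No function, position or sequence is given for them for this reason, lists of pathway and cell type marker genes were not analysed, and xmrk reads were not used to check the genotypes.

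The scores of the 100 genes ran from 0.64 to 6.67 with a median of 0.95, and 48 genes scored 1 or more, a doubling in each control. At the lower end, ENSORLG00000000240 and ENSORLG00000016378 were the last genes kept, with scores of 0.65 and 0.64. ENSORLG00000002267 and ENSORLG00000009125 were the first genes outside, with scores of 0.64 and 0.63, so the scores ran on without a break across the limit.

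The mean log2 CPM over the 100 genes gives each fish a single level. In the cisplatin fish it lay between 1.87 and 2.71, with a median of 2.07, in the 10 transgenic fish. It lay between 0.68 and 1.18, with a median of 0.90, in the 5 wild-type fish. Every transgenic cisplatin fish stood above every wild-type cisplatin fish, and the lowest transgenic fish exceeded the highest wild-type fish by 0.70. The highest values were 2.46 in transgenic and 0.96 in wild-type cisplatin fish when the low-TMM libraries were left out. In the trametinib fish the level lay between 2.00 and 2.44, with a median of 2.23, in transgenic fish. In wild-type trametinib fish it lay between 0.54 and 0.88, with a median of 0.71. The groups did not overlap here either, and the gap between them was 1.12.

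**Figure D1:**
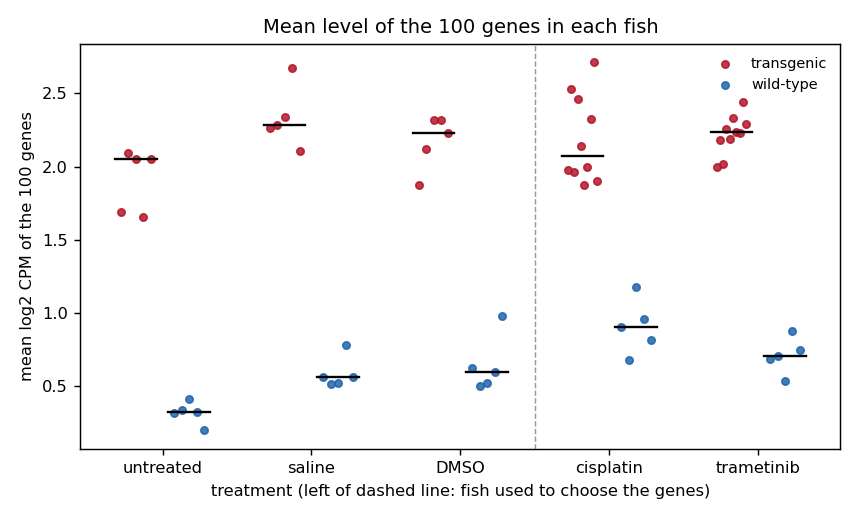
Mean log2 CPM over the 100 genes (y axis) in each of the 60 fish by treatment (x axis), with transgenic fish in red, wild-type fish in blue and group medians as black bars. The control fish left of the dashed line chose the genes; right of it, transgenic cisplatin fish sit at 1.87 or above and wild-type cisplatin fish at 1.18 or below.

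Side by side, the mean level of the transgenic fish was 1.91 ± 0.22 (SD, n = 5) when untreated, 2.33 ± 0.21 (n = 5) in saline, 2.17 ± 0.18 (n = 5) in DMSO, 2.19 ± 0.30 (n = 10) in cisplatin and 2.22 ± 0.13 (n = 10) in trametinib. That of the wild-type fish was 0.32 ± 0.08 (SD, n = 5 in each group) when untreated, 0.59 ± 0.11 in saline, 0.65 ± 0.19 in DMSO, 0.91 ± 0.18 in cisplatin and 0.71 ± 0.12 in trametinib. The genotype difference in this level was 1.59, 1.74 and 1.52 in the controls that chose the genes. It was 1.28 in cisplatin and 1.51 in trametinib. With the low-TMM libraries left out the difference was 1.59 in untreated fish, 1.66 in saline and 1.61 in DMSO. In cisplatin it was then 1.24 and in trametinib 1.49. Because vehicle fish took part in the choice, no drug was tested against its vehicle.

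The separation within a fish was broad. In a transgenic cisplatin fish, 79 to 93 of the 100 genes, with a median of 86, lay above the wild-type cisplatin median of the gene. In a transgenic trametinib fish the number was 84 to 95, with a median of 89.5. Among wild-type fish, whose own values set the median, it was 27 to 59 under cisplatin and 31 to 47 under trametinib. The value of 59 was that of fish 40, a low-TMM library. Of all genes past the CPM limit, 43% to 51.1% lay above the wild-type median in a transgenic cisplatin fish and 47.8% to 53.1% in a transgenic trametinib fish. In wild-type fish these shares were 36.1% to 45.5% under cisplatin and 37.3% to 42.2% under trametinib. The 100 genes together took a small part of the reads, 0.143% to 0.258% in transgenic cisplatin fish against 0.0725% to 0.0881% in wild-type ones, and 0.147% to 0.209% against 0.0821% to 0.115% under trametinib.

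Each gene was then tested in the 30 drug fish with edgeR's quasi-likelihood test and Benjamini-Hochberg adjustment over all 18743 genes tested, and a gene is called at an adjusted p under 0.05. All 100 genes passed the filter on low counts of that fit. Under cisplatin, 21 of the 100 genes were called higher in transgenic fish, while 0.507% of all genes tested were. None was called lower, and 1.49% of all genes were. Under trametinib, 29 were called higher and 0 lower, where the shares of all genes were 1.08% and 0.795%. In the genotype difference averaged over both drugs, 45 were called higher, against 1.34% of all genes, and 0 lower, against 1.23%. Without the low-TMM drug libraries 26, 42 and 50 genes were called higher, against larger shares of all genes than before, 1.94%, 7.33% and 3.39%. The cisplatin count was 13 without wild-type cisplatin fish 42 (0.224% of all genes), and the trametinib count was 19 without wild-type trametinib fish 48 (0.447% of all genes). The 100 genes made up 22.1%, 14.4% and 17.9% of all genes called higher in these comparisons.

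Most of the 100 estimates were above 0, called or not. The median log2 fold change of the 100 genes was 1.00 under cisplatin, against 0.07 over all genes, and 93 of them had an estimate above 0, against 58.4% of all genes. Under trametinib the median was 1.10, against -0.00 over all genes, and 90 estimates were above 0, against 49.5%. Averaged over both drugs the median was 1.05, against 0.02, and 96 were above 0, against 53.7%. At an unadjusted p under 0.05, 50 genes were higher under cisplatin (6.17% of all genes), 59 under trametinib (7.79%) and 72 in the average (7.83%). None was lower, and the share of all genes lower at this threshold was not counted.

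Called separately under both drugs were 20 of the 100 genes, against 0.176% of all genes. A further 10 passed the threshold under 1 drug, 9 of them under trametinib, and ENSORLG00000004774 under cisplatin (adjusted p = 0.0395), a call that was lost without the low-TMM libraries (adjusted p = 0.0555). Another 15 were called in the average alone, and 55 were called in none of these comparisons. The 4 genes with a negative average estimate were ENSORLG00000003870 (-0.82), ENSORLG00000009641 (-0.45), ENSORLG00000004487 (-0.01) and ENSORLG00000008419 (-0.00), named after their values were seen, and none of them was called.

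**Figure D2:**
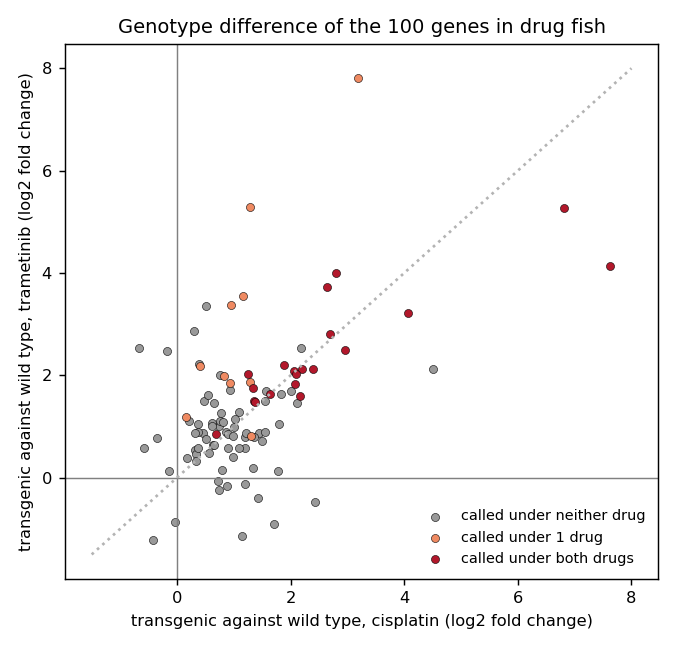
Genotype difference of each of the 100 genes as log2 fold change under cisplatin (x axis) and trametinib (y axis), coloured by whether a gene was called under both drugs, 1 drug or neither. Grey lines mark 0 and the dotted line equal values; 85 of the 100 points lie above 0 on both axes, among them the 20 genes called under both drugs.

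The estimates under the 2 drugs come from different fish within a single fit. Across the 100 genes they had a Pearson correlation of 0.517 and a Spearman correlation of 0.382, where all 18743 genes gave 0.214 and -0.00743. Genes are not independent replicates, and these values are descriptions. Both estimates were above 0 for 85 of the 100 genes and for 28.9% of all genes, and both were below 0 for ENSORLG00000003870 and ENSORLG00000009641 among the 100.

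Whether the genotype difference of a gene depended on the drug was tested directly as the difference between both genotype differences. None of the 100 genes was called by edgeR's quasi-likelihood test, where 1.32% of all genes were, and the smallest adjusted p among them was 0.102. At an unadjusted p under 0.05 there were 12 of the 100, against 12.4% of all genes in either direction, so their share was close to the background. Of these 12, 9 had a positive value, which is a higher log2 fold change under trametinib than under cisplatin. Shares of all genes by direction were not counted at this threshold. At an adjusted p under 0.05, 1.22% of all genes had a positive value and 0.101% a negative value. DESeq2 called 3, which were ENSORLG00000005947, ENSORLG00000019358 and ENSORLG00000019579, against 3.26% of all genes. Limma-voom with quality weights called 8, against 26.7%. With the low-TMM drug libraries left out edgeR called 4, which were ENSORLG00000006135, ENSORLG00000000983, ENSORLG00000019358 and ENSORLG00000019579, against 10.4% of all genes. Leaving out single fish gave 0 to 3 calls. There were 3 without wild-type trametinib fish 49 (0.974% of all genes), 2 without transgenic cisplatin fish 21 (3.56%), and 1 without wild-type fish 40 (0.804%) or 51 (1.88%). The median of this difference over the 100 genes was 0.10, and it was -0.07 over all genes.

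The groups were also compared by overlap alone. Every transgenic fish lay above every wild-type fish for 13 genes under cisplatin, against 0.419% of the 17881 genes past the CPM limit, and for 23 under trametinib, against 1.22%. The opposite separation occurred for 0 of the 100 genes under either drug, against 1.48% of all genes under cisplatin and 0.526% under trametinib. For 8 genes the groups were apart under both drugs, against 0.0727%. With the low-TMM libraries left out the 3 counts were 18, 27 and 12, against 2.87%, 1.4% and 0.168% of all genes. The difference of medians reached at least 0.64, the lowest score of the list, in both drugs for 63 of the 100 genes and for 1.12% of all genes.

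The 8 genes that were apart under both drugs were also called under both drugs. Both measures used the same fish, so they are not separate evidence. They were ENSORLG00000000026, ENSORLG00000016252, ENSORLG00000019710, ENSORLG00000015001, ENSORLG00000004344, ENSORLG00000002478, ENSORLG00000006038 and ENSORLG00000019564. ENSORLG00000006038 had the smallest standard error among them, with a log2 fold change of 1.63 (SE 0.25) under cisplatin and 1.64 (SE 0.25) under trametinib (adjusted p = 0.000193 and 0.000282).

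ENSORLG00000000026 had the largest average difference of the list. Wild-type cisplatin fish held 0.256, 0.319, 0.441, 0.127 and 0.269 CPM. The 10 transgenic cisplatin fish lay between 2.15 and 119 CPM, with a median of 21.8. All transgenic fish were thus above all wild-type fish. The 2 highest values were those of fish 21 and 31, both low-TMM libraries, and the other 8 reached at most 41.2 CPM with a median of 13.1. Under trametinib the wild-type fish held 0.404, 0.503, 0.397, 0.488 and 0.226 CPM, and the transgenic fish lay between 5.28 and 28.9 CPM with a median of 13.7. The log2 fold change was 6.81 (SE 0.95, adjusted p = 6.71e-05) under cisplatin and 5.27 (SE 0.87, adjusted p = 0.000649) under trametinib. It was the only 1 of all genes with every wild-type drug fish under 1 CPM and every transgenic drug fish at 1 CPM or more. In the controls, which chose it, the separation was incomplete. Transgenic saline fish held 54.5, 4.60, 1.36, 19.0 and 0.176 CPM, and the last of these lay within the wild-type saline range of 0.128 to 0.374.

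ENSORLG00000016252 had the next largest called rise under cisplatin among members of average log2 CPM 1 or more. Wild-type cisplatin fish held 1.46, 0.957, 0.359, 0.233 and 0.471 CPM. Transgenic cisplatin fish lay between 2.24 and 65.9 CPM with a median of 4.99, and the highest value was that of fish 21, a library of low TMM factor. Wild-type trametinib fish held 0.231, 0.699, 0.794, 0.909 and 0.209 CPM, against 1.03 to 24.9 with a median of 2.94 in transgenic ones. The groups were apart under both drugs, narrowly so under trametinib. The log2 fold change was 4.06 (SE 0.91, adjusted p = 0.0135) under cisplatin and 3.21 (SE 0.87, adjusted p = 0.049) under trametinib. Leaving out the low-TMM libraries gave a cisplatin value of 2.56. Without wild-type cisplatin fish 41 the value was 3.84 and was no longer called (adjusted p = 0.0534, within a range of 3.87e-08 to 0.0544 over all alternatives).

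ENSORLG00000015001 had the highest level of the list, with a mean of 287 CPM over the drug fish. Wild-type cisplatin fish held 149, 181, 198, 169 and 199 CPM, and transgenic ones lay between 226 and 788 with a median of 416. Wild-type trametinib fish held 55.1, 80.1, 112, 42.3 and 128 CPM, and transgenic ones lay between 176 and 700 with a median of 202. The groups were apart under both drugs, at a difference of 1.33 (SE 0.35, adjusted p = 0.0406) and 1.75 (SE 0.36, adjusted p = 0.00664) on the log2 scale. With the low-TMM libraries left out, the transgenic ranges ended at 673 CPM under cisplatin and 433 CPM under trametinib. The differences were then 1.16 (adjusted p = 0.028) and 1.49 (adjusted p = 0.00179). ENSORLG00000009925, second in level, behaved differently. Its wild-type cisplatin fish held 72.8, 103, 155, 14.7 and 57.9 CPM, within the transgenic range of 22.6 to 1028 apart from the lowest. Without the low-TMM libraries that range ended at 352 CPM, and it still overlapped the wild-type one. Its average log2 fold change over both drugs, 1.74 (SE 0.51), was larger than that of ENSORLG00000015001, 1.54 (SE 0.25), yet it was not called (adjusted p = 0.0677 against 0.000232).

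**Figure D3:**
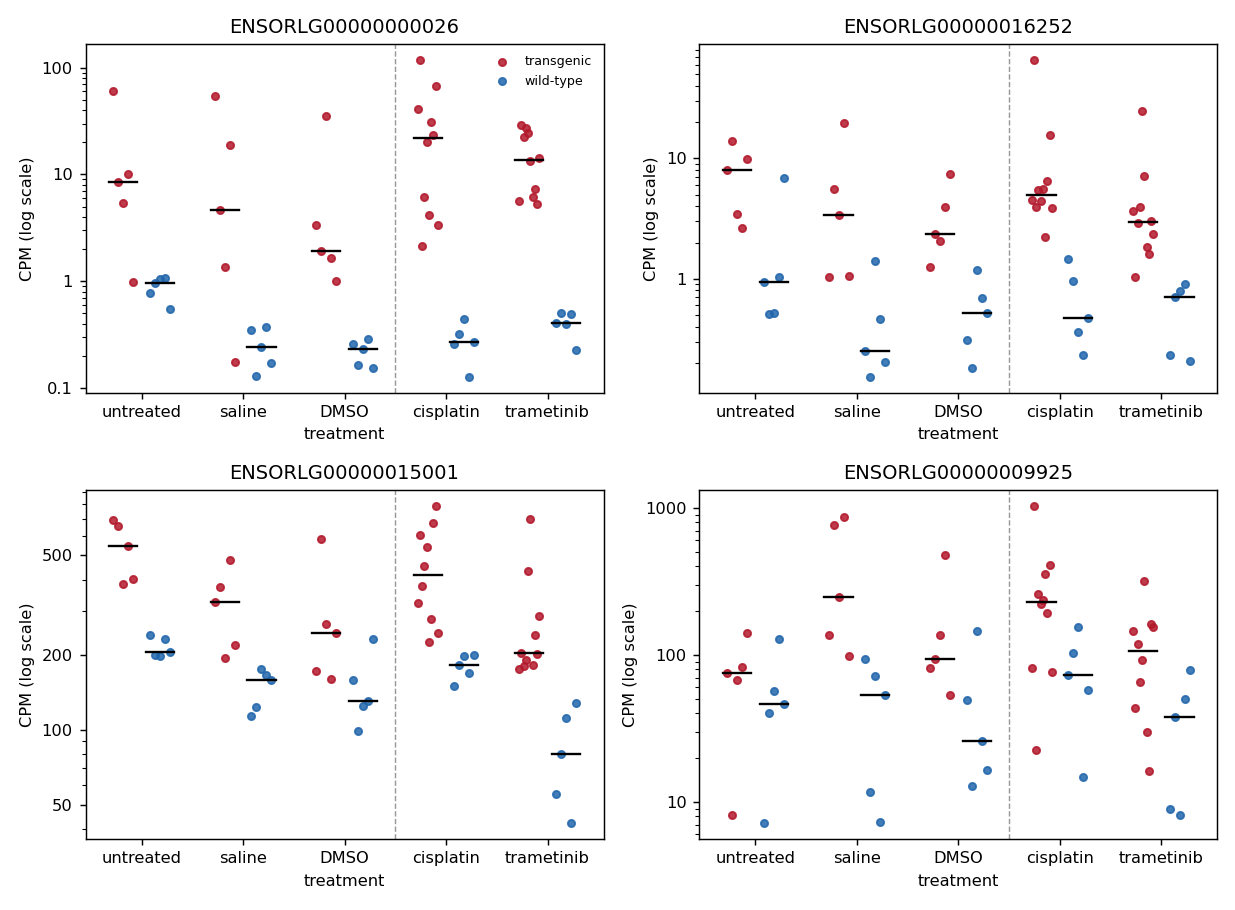
CPM on a log axis (y) in each fish by treatment (x) for 4 of the 100 genes, with transgenic fish in red, wild-type fish in blue, group medians as black bars and the control fish that chose the genes left of the dashed line. In ENSORLG00000000026, ENSORLG00000016252 and ENSORLG00000015001 the genotypes do not overlap within either drug. In ENSORLG00000009925 they overlap within both drugs.

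The gene of highest score, ENSORLG00000000443, was nearly absent from most wild-type fish. Wild-type trametinib fish held 0.0288, 0.0280, 0.0345, 0.0222 and 0.0174 CPM, which is 1 to 2 reads per library. Transgenic trametinib fish lay between 2.19 and 14.5 CPM with a median of 6.25. The log2 fold change was 7.81 (SE 1.41, adjusted p = 0.00203). With so few wild-type reads the size of this fold change depends on the prior count of the fit. Of the wild-type cisplatin fish, 3 held 0 CPM, fish 41 held 0.0212 CPM and fish 40 held 6.54 CPM, a value inside the transgenic range of 3.69 to 48.6 (median 6.95), which ended at 9.37 without the low-TMM libraries. The cisplatin difference of 3.19 (SE 1.01) was not called (adjusted p = 0.113). It was 9.81 and called (adjusted p = 1.55e-10) without the low-TMM libraries, fish 40 among them, which left wild-type cisplatin fish with 0 or 1 reads. The average over both drugs was 5.50 (SE 0.87, adjusted p = 0.000143), and it was 9.19 without wild-type fish 40. The difference between the drugs for this gene, 4.62 (adjusted p = 0.15), turned to -2.77 without fish 40 and, with all low-TMM libraries left out, to -2.20.

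Fish 40 was not alone. Among all 25 wild-type fish, 3 held ENSORLG00000000443 within the range of the 35 transgenic fish. They were saline fish 35 with 3.04 CPM, DMSO fish 44 with 4.50 CPM and cisplatin fish 40 with 6.54 CPM. Fish 35 lay below the transgenic saline fish, of which the lowest held 3.96 CPM. The other 22 wild-type fish held at most 0.0696 CPM, and the lowest of the 35 transgenic fish held 2.19 CPM. The same 3 wild-type fish were the highest of the wild-type fish for ENSORLG00000013712, with 4.51, 4.05 and 7.39 CPM against at most 1.60 in the other 22. They were also the highest for ENSORLG00000014007, with 5.50, 5.03 and 7.01 CPM against at most 3.08. These genes, picked after their values were seen, were the members most like ENSORLG00000000443 over the 30 drug fish, with Pearson correlations of log2 CPM of 0.929 and 0.951, which include the genotype difference. Within drug groups the correlations were 0.822 and 0.842. These values include the low-TMM libraries, wild-type fish 40 among them. With the log2 TMM factor, ENSORLG00000000443, ENSORLG00000013712 and ENSORLG00000014007 had within-group correlations of -0.553, -0.781 and -0.499. The part of library composition in their likeness was not tested. Both genes were called under both drugs, ENSORLG00000013712 with 2.69 (SE 0.69, adjusted p = 0.0347) and 2.81 (SE 0.70, adjusted p = 0.0281), and ENSORLG00000014007 with 1.35 (SE 0.29, adjusted p = 0.00826) and 1.51 (SE 0.29, adjusted p = 0.00343).

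**Figure D4:**
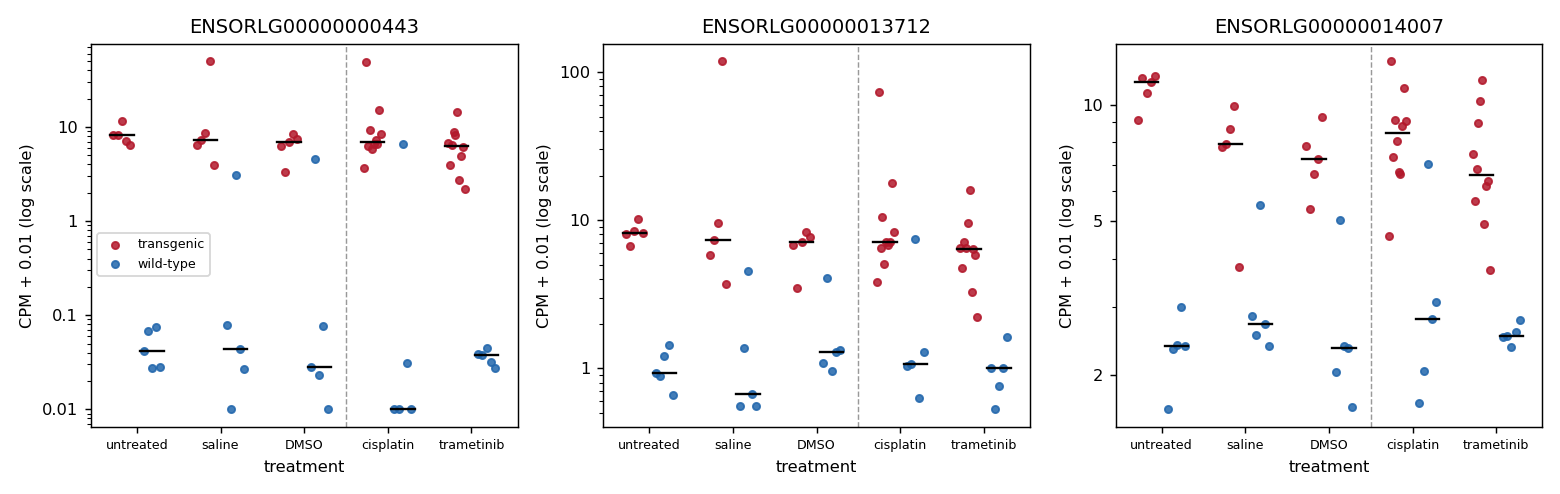
CPM plus 0.01 on a log axis (y) of ENSORLG00000000443, ENSORLG00000013712 and ENSORLG00000014007 in all 60 fish by treatment (x), with transgenic fish in red, wild-type fish in blue, medians as black bars and the control fish left of the dashed line. One wild-type fish each in saline, DMSO and cisplatin sits at the level of transgenic fish in the first panel, and the same fish are the highest wild-type fish in the others.

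Outside the 100 genes, those most like ENSORLG00000000443 over the 30 drug fish were ENSORLG00000000502 and ENSORLG00000019824, with Pearson correlations of 0.814 and 0.793. These correlations include the genotype difference. The pick and the tests used the same fish, so the calls of these genes are descriptions only. ENSORLG00000000502 was called under both drugs, at the modest log2 fold changes of 0.92 (SE 0.22, adjusted p = 0.0192) and 0.89 (SE 0.22, adjusted p = 0.0241). ENSORLG00000019824 was called in the average (0.53, SE 0.13, adjusted p = 0.021).

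ENSORLG00000020568 had the second highest score but was not called. Wild-type cisplatin fish held 3.02, 0.0425, 4.61, 0.0424 and 0 CPM, and the transgenic range of 0.0890 to 7.45 CPM enclosed 2 of them. Without the low-TMM libraries the transgenic range ended at 1.47 CPM. Its log2 fold changes were 0.29 (SE 1.04, adjusted p = 0.934) under cisplatin and 2.87 (SE 1.20, adjusted p = 0.279) under trametinib. Of the 10 genes of highest score, 5 were called in the average.

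The most negative estimates changed sign when a single wild-type fish was left out. For ENSORLG00000002841 under cisplatin, wild-type fish held 0.102, 4.79, 5.38, 10.8 and 0.0842 CPM, around the transgenic range of 0.443 to 5.32, and the estimate of -0.67 (adjusted p = 0.756) was 0.06 without fish 41. Under trametinib the transgenic fish of this gene lay between 5.76 and 19.0 CPM, above all wild-type fish, which held 4.75, 0.0699, 0.104, 0.0887 and 4.20 CPM, and the estimate was 2.54 (SE 0.90, adjusted p = 0.167). For ENSORLG00000003870 under trametinib, wild-type fish held 0.952, 4.57, 0.328, 22.1 and 0.348 CPM and transgenic fish 0.352 to 9.45. Its estimate of -1.21 (adjusted p = 0.493) became 0.65 without fish 51. ENSORLG00000017161 had the most negative estimate for the difference between the drugs among members of average log2 CPM 1 or more, at -2.89 (adjusted p = 0.305). In this gene too wild-type trametinib fish 51 stood out, with 78.3 CPM against 0.606 to 5.30 in the other 4, and without it the value was 0.05.

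As a group the 100 genes were low and variable. How far the rule that chose them favours such genes was not tested, and all genes were not matched to them for level. Their median level over the drug fish was 3.68 CPM, with a range of 0.512 to 287, against a median of 14.7 CPM over all genes, and 79 of them lay under that median. Their median within-group SD of log2 CPM was 0.79 against 0.41 over all genes, and 49 of them lay above the 90th percentile of all genes. The 45 genes called in the average had a median SD of 0.69, a median level of 6.30 CPM and log2 fold changes from 0.52 to 6.04. The 55 others had a median SD of 0.97, a median level of 2.90 CPM and a median log2 fold change of 0.77. Genes ranked 1 to 10 by score had a median SD of 1.43, those ranked 11 to 50 had 0.91, and those ranked 51 to 100 had 0.66, while 5, 21 and 19 of them were called in the average.

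**Figure D5:**
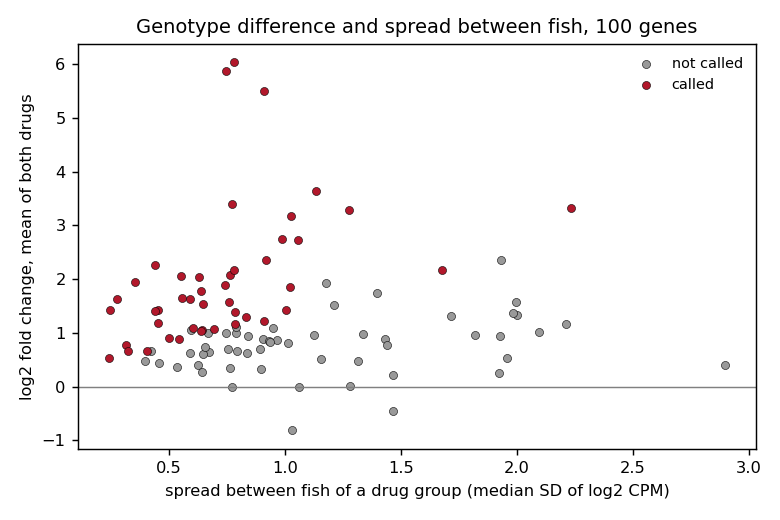
Genotype difference averaged over both drugs as log2 fold change (y axis) against the median within-group SD of log2 CPM over the 4 drug groups (x axis) for the 100 genes, called genes in red and the others in grey. The 45 called genes have a median SD of 0.69 and the 55 others one of 0.97.

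The most variable members were ENSORLG00000005837 and ENSORLG00000020247. ENSORLG00000005837 lay between 0 and 7.33 CPM in transgenic cisplatin fish and between 0.0528 and 17.6 CPM in transgenic trametinib fish, and wild-type fish covered 0.128 to 1.92 and 0.0348 to 20.7 CPM. Its average log2 fold change was 0.40 (SE 0.95, adjusted p = 0.936). ENSORLG00000020247 was high in all 10 transgenic trametinib fish, from 56.2 to 228 CPM with a median of 131, whereas the transgenic cisplatin fish lay between 0.672 and 81.7 CPM with a median of 3.36. Without fish 21 and 31, both low-TMM libraries, the transgenic cisplatin fish reached at most 4.04 CPM. Wild-type trametinib fish held 46.1, 0.685, 0.121, 88.7 and 12.8 CPM, and wild-type cisplatin fish 0, 0.191, 0.883, 2.21 and 0.101 CPM. The average difference of this gene was 3.32 (SE 0.89, adjusted p = 0.0379), and neither drug alone passed the threshold (adjusted p = 0.0895 and 0.462). Without the low-TMM libraries the average was 2.11 (SE 0.74) and was not called (adjusted p = 0.0945).

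The 100 genes did not move as a single block between fish of the same group. Over 4950 pairs of them, the median Pearson correlation of log2 CPM within drug groups was 0.03. It reached 0.7 in 31 pairs (0.626%), against 11.1% of all pairs of genes. With the low-TMM libraries left out these shares were 0.646% and 1.12%. With the log2 TMM factor itself, 10 of the 100 genes and 50.4% of all genes had a correlation of at least 0.7 in size. Average linkage at a distance of 0.4 left 40 genes alone, and its largest groups held 7 and 4 genes. The group of 7 held ENSORLG00000000026, ENSORLG00000002478, ENSORLG00000004344, ENSORLG00000006038 and ENSORLG00000015001, which are 5 of the 8 genes that were apart under both drugs, together with ENSORLG00000007074 and ENSORLG00000007497. The correlation of these 7 with the log2 TMM factor ran from -0.831 to -0.471, and the part of library composition in their grouping was not tested.

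Some members were low in all wild-type drug fish. In 7 of the 100 genes every wild-type drug fish was under 1 CPM, and the share of all genes under this limit was not counted. Only 1 of the 7, ENSORLG00000000026, had every transgenic drug fish at 1 CPM or more. For this gene, values under 1 CPM were not an absence of reads. It had 6 to 16 reads in wild-type cisplatin fish and 13 to 36 in wild-type trametinib fish. For ENSORLG00000019564, another of the 7, the lowest wild-type fish under each drug held 0 CPM. In 32 of the 100 genes every drug fish of either genotype was at 1 CPM or more. ENSORLG00000019564, picked after its values were seen, had the largest cisplatin estimate of the list in the main fit, 7.63 (SE 0.94, adjusted p = 2.23e-05). Without the low-TMM libraries it was 7.89 (adjusted p = 5.9e-05), and that of ENSORLG00000000443 was larger, 9.81. With so few wild-type reads the size of both estimates depends on the prior count of the fit. ENSORLG00000019564 was at most 0.0552 CPM in any wild-type drug fish, and at least 0.0528 CPM in every transgenic one, of which 8 of 20 reached 1 CPM. Without the low-TMM libraries, its transgenic trametinib fish held only 0.0528 to 0.646 CPM, with a median of 0.173. Wild-type trametinib fish held at most 0.0173 CPM, and transgenic cisplatin fish held 0.6155 to 6.228 CPM.

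For comparison, the 100 genes with the highest scores by the mirrored rule, lower in transgenic fish in every control, were followed in the same fit. Of these, 37 were called lower under cisplatin, 43 under trametinib and 53 in the average, against 1.49%, 0.795% and 1.23% of all genes. None was called higher, and the median log2 fold changes were -1.28, -1.31 and -1.31. The corresponding counts of the higher genes were 21, 29 and 45. The difference between both lists was not tested.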

How the data were processed

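Whole-fish RNA sequencing gave 60 libraries, 1 per title and fish number. The authors deposited whole-number counts of reads per gene, not normalized, with 1 column per library. TopHat2 (2.2.4) and featureCounts are named in the submitters' processing notes. Not given in the sources used here were the build, annotation release, strand setting and handling of multi-mapping reads. Counts of overlapping or near-identical genes are therefore uncertain.

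Analysis used R 4.3.3 with edgeR 4.0.16, limma 3.58.1 and DESeq2 1.42.0. Printed CPM and the scores used TMM factors over all 60 libraries, with a prior count of 2 for log2 CPM. The main fit held the 30 drug fish in 4 groups (filterByExpr, TMM, robust dispersions, quasi-likelihood F test), without any control fish, and gave 4 comparisons. Standard errors came from the F statistic. Total counts of 34788594 to 67018564 limit the precision of genes with few reads.

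Named genes were, per comparison, the 2 called genes with the largest change in each direction at an average log2 CPM of at least 1, or the most extreme estimate where none was called; further the 2 highest in score, level and variation, the 2 on each side of rank 100, and the 2 others most like the top gene. All other genes were named by their results after the values were seen, and only some of them are marked so. The members, lists and tests were chosen with earlier results of these data known. Alternatives were other normalizations, filters, tests, sets of fish and choices of members, and 3 alternatives without low-TMM libraries were added after the data were seen.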

Additional observations from a re-analysis of the deposited data

Results flagged for a closer look

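Within the drug groups of 5 or 10 fish, a sample far from the others was looked for with Dixon's test in 56 groups of values, those of the mean level of the 100 genes and of the named members on a scale of log2(CPM + 0.1). It flagged 3, where chance flags about 1 in 20. ENSORLG00000000443 was far above the rest of its group in wild-type cisplatin fish 40 (6.54 CPM). ENSORLG00000017161 was low in transgenic cisplatin fish 32 (1.32 CPM), and ENSORLG00000020568 was low in transgenic trametinib fish 62 (0.0203 CPM). The causes were not tested.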

How the results depend on the processing

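No paired analysis was possible because each fish number occurs once in the series. Under cisplatin the 21 called genes became 35 with DESeq2 (1.54% of all genes, against 0.507% in the printed comparison), 50 with limma-voom and quality weights (11.9%), 11 with each drug fitted alone (0.189%) and 12 among the 50 highest scores. Under trametinib the 29 became 49 with limma-voom (9.57% of all genes, against 1.08%) and 18 among the 50 highest scores. In the average the 45 became 26 among the 50 and 71 among the 200 highest scores (1.34% of all genes in the same fit), lists of another size by construction. For the difference between the drugs the 0 called genes became 3 with DESeq2 (3.26% of all genes), 8 with limma-voom (26.7%) and 4 without libraries of low TMM factor (10.4%). In the main fit, which called 1.32% of all genes, 3 were called among the 200 highest scores. There was 1 with means in place of medians in the score. DESeq2 gave no adjusted p for 1 of the 100 genes.

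Leaving out 1 fish at a time in 30 fits gave 13 (without wild-type cisplatin fish 42) to 24 (without transgenic cisplatin fish 21) called genes, with 0.224% and 1.02% of all genes, under cisplatin. It gave 19 (without wild-type trametinib fish 48) to 36 (without transgenic cisplatin fish 21) under trametinib, with 0.447% and 3.24%. In the average it gave 35 (without wild-type cisplatin fish 42) to 51 (without transgenic cisplatin fish 21), with 0.937% and 2.12%. For the difference between the drugs it gave 0 to 3, with 3 without wild-type trametinib fish 49 (0.974% of all genes), 2 without transgenic cisplatin fish 21 (3.56%), and 1 each without wild-type fish 40 (0.804%) and 51 (1.88%). In these fits none of the 100 genes was called lower in a genotype comparison. Other counts of calls stayed within 1.5 times of the printed ones. Of the members, 68 were kept when means replaced medians in the score, and 83 with the low-TMM libraries left out of the score. With TMM factors and the mean CPM limit from the control fish alone, 98 were kept.

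The estimates that changed sign had not been called. ENSORLG00000002841 under cisplatin became 1.29 with limma-voom, and it ran from -0.98 to 0.056 when 1 fish was left out, the latter without wild-type fish 41. ENSORLG00000003870 became 0.97 with limma-voom and 0.65 without wild-type fish 51 under trametinib, and 0.33 and 0.12 in the average; leaving out 1 fish gave at lowest -1.77 and -1.09. For the difference between the drugs, ENSORLG00000000443 became -1.34 with limma-voom, -2.20 without libraries of low TMM factor and -2.77 without wild-type fish 40, and it was called without transgenic cisplatin fish 21 (5.22, adjusted p = 0.0426, the lowest of a range up to 0.528). ENSORLG00000017161 became 0.037 with limma-voom, and it ran from -3.56 to 0.051 when 1 fish was left out, the latter without wild-type fish 51. ENSORLG00000016252 under cisplatin lost its call when each drug was fitted alone (adjusted p = 0.0544) and without wild-type fish 41 (0.0534). Beyond those left-out fish, the causes were not tested.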
